A study of Mus musculus with 10 samples.

Results

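A set of 10 genes of bone morphogenetic protein (BMP) signalling were followed through the single-cell RNA-seq libraries. They were chosen by name, as a ligand (Bmp4), a type I receptor (Bmpr1a), a decoy receptor (Bambi), a signal transducer (Smad9), the inhibitory Smads (Smad6 and Smad7) and the inhibitor of DNA binding genes (Id1, Id2, Id3 and Id4), and they make up 10 of the 31053 genes counted. The UMI counts of each member were summed per library and per deposited cell class. The study grew mouse small intestinal organoids in 3 media and added 2 libraries of colonic crypts. ENR-organoids (3 libraries) received EGF, R-Spondin 1 and Noggin at 100 ng/mL. Hyper-organoids (3 libraries) received EGF, R-Spondin 1 conditioned medium, FGF2, GSK-3 Inhibitor XV, Pexmetinib, valproic acid (VPA) at 500 µM, EPZ6438 at 2 µM and, in place of Noggin, LDN193189 at 0.2 µM. The -VE-organoids (2 libraries) received the Hyper medium without VPA and EPZ6438. The organoids came from proximal small intestinal crypts of mice aged 6 to 12 weeks, and were taken at passages 2, 7 and 3 (ENR), 1 and 6 (-VE) and 1, 6 and 3 (Hyper). In the culture series 2 and 6 the -VE and Hyper cultures were started from ENR-organoids, and in the series C both cultures were started from primary crypts. The colonic crypts came from normal mice and from mice given dextran sulphate sodium (DSS), which injures the colonic epithelium, with 1 library each; the study's methods describe 2.5% DSS in the drinking water for 5 days, given to mice aged 8 weeks.

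BMP ligands bind paired type I and type II receptors, which phosphorylate Smad1, Smad5 and Smad9, and these enter the nucleus with Smad4 and switch on target genes, among which the Id genes are well known. Id proteins bind E proteins and keep them off DNA, and the inhibitory Smads and Bambi, themselves targets of the pathway or of related ones, dampen the signal. In the intestine BMP ligands of the mesenchyme act on the upper crypt and villus, and organoid media hold a BMP inhibitor so that stem cells persist. Noggin binds the ligands outside the cell, and LDN193189 blocks the kinase of the type I receptors inside it. VPA inhibits histone deacetylases and EPZ6438 inhibits the histone methyltransferase EZH2.

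The promoters of Id4, Smad9 and Bmp4 are shown because these 3 members were called higher in Hyper-organoids than in both other media over all kept cells. A call meant an adjusted p under 0.05 in edgeR with at least a 2-fold difference. Bambi and Smad6 also lay higher in every Hyper library, but were not called in both comparisons. They are the 250 bases before the annotated start (RefSeq, GRCm38.p6; Id4 at chr13:48260866-48261115 on the plus strand, Smad9 at chr3:54755332-54755581 on the plus strand, Bmp4 at chr14:46390670-46390919 on the minus strand), printed 5′ to 3′, and capitals mark each match to GGCGCC, a GC-rich element that BMP Smads are known to bind.
Id4: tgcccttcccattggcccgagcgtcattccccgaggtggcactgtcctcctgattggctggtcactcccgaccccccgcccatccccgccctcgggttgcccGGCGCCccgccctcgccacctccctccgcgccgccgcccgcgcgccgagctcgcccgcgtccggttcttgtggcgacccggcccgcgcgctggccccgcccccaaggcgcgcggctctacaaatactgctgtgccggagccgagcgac
Smad9: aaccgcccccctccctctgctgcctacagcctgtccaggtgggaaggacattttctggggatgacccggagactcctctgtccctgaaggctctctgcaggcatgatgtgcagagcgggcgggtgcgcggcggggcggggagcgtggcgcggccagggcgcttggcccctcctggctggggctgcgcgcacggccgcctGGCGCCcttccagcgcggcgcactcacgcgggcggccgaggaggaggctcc
Bmp4: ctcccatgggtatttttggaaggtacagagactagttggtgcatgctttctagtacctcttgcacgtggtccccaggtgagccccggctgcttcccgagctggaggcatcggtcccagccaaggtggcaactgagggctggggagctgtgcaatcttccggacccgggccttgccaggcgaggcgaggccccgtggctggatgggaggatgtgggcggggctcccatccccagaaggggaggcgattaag
GGCGCC reads the same on both strands. It stood once in the Id4 window (first base at -148), once in that of Smad9 (-51) and not in that of Bmp4. Of the 7 members with an entry in the RefSeq table, 4 held the element (Id2 and Bmpr1a as well), and 3 did not (Smad6 and Id3 as well). The windows of Id2, Id3 and Bmpr1a overlap exons of the GENCODE annotation (1, 1 and 2), so they lie within the annotated gene, while those of the other 4 overlap none. Among all 32851 windows of the same length, 9.59 percent held it. The 7 member windows were 62.8 to 78.8 percent G or C, and the 32851 windows were not matched for this, so the shares are not like for like. A match is a description of the letters and no evidence of binding.

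In the gene annotation of GRCm38 (GENCODE), Id1 lies at chr2:152736251-152737410, Id2 at chr12:25093799-25097140, Id3 at chr4:136143497-136145755, Id4 at chr13:48261228-48266026, Smad6 at chr9:63953076-64022059, Bmpr1a at chr14:34410734-34503341, Bmp4 at chr14:46383520-46390669 and Smad9 at chr3:54755582-54801257. Smad7 and Bambi lie on chromosome 18.

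The 25204 cells kept in the deposited annotation held 89124015 to 170019527 UMIs per organoid library and 19906845 and 32397122 in the colonic libraries, and the median cell of an organoid library held 38173.5 to 50651.5 UMIs. Most deposited classes carried their own markers highest, but enterocyte progenitors held more TA than progenitor markers (2181 and 2049 CPM) and tuft cells more goblet than tuft markers (3139 and 2814 CPM). The goblet class also held Paneth markers (7321 CPM, UMIs of a gene scaled to a fixed library total) and the stem class held stem markers at the level of the transit amplifying (TA) class (1496 and 1491 CPM). The make-up of the cultures moved with the medium: stem cells were 9.75 to 14.7% of ENR libraries, 24.3 and 28.2% of -VE libraries and 40.0 to 44.1% of Hyper libraries, while enterocyte progenitors were 22.2 to 34.5%, 4.29 and 4.39%, and 0.09 to 0.11%. Markers of mesenchymal cells, which make BMP ligands in the gut, summed to 0.28 to 0.58 CPM over 8 genes in ENR and -VE libraries and to 0.83 to 1.13 CPM in Hyper libraries. In a sum over all cells, fewer cells of a type and less RNA per cell cannot be told apart, so the members were tested in all cells and again within classes. The labels do not say that libraries of one medium came from separate animals, so each p-value measures only the spread between these libraries.

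**Figure D1:**
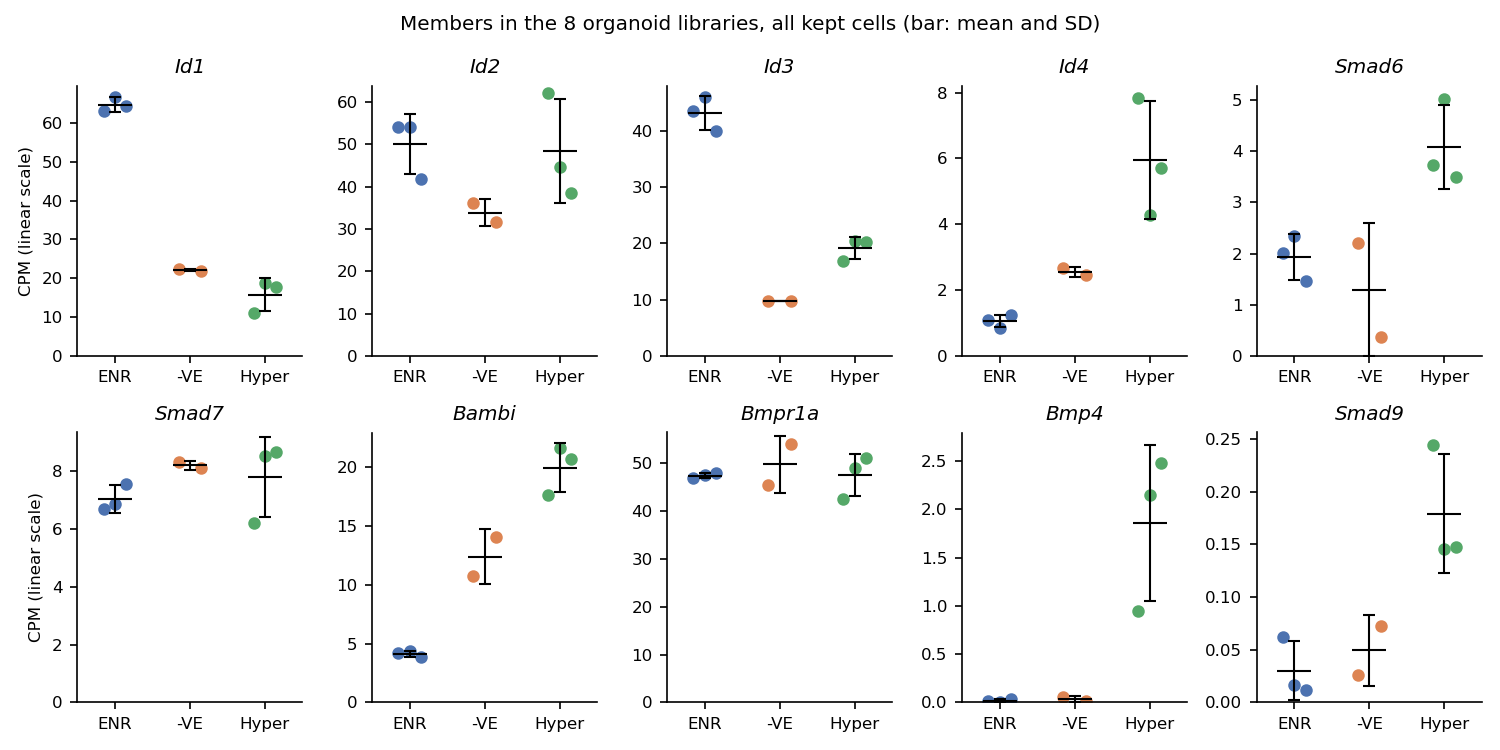
Levels of the 10 members over all kept cells (CPM after TMM scaling, linear axis from 0, 1 panel per gene and 1 point per library, with the mean and SD of the libraries of ENR, -VE and Hyper). Id1 and Id3 lay highest in the ENR libraries (63.1 to 66.8 and 39.9 to 45.9 CPM), while Bambi, Id4, Bmp4 and Smad9 lay highest in the Hyper libraries.

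Over all kept cells, a gene was called where edgeR's quasi-likelihood test gave a Benjamini-Hochberg adjusted p under 0.05 with at least a 2-fold difference. Between Hyper and ENR, 6 of the 10 members were called (Bmp4, Bambi, Smad9 and Id4 higher, Id1 and Id3 lower), beside 22.9 percent of the 16037 genes tested (18.2 percent higher and 4.75 percent lower). Between Hyper and -VE, which differ in VPA and EPZ6438, 3 members were called, all higher (Bmp4, Smad9 and Id4), beside 18.6 percent of genes (16.1 percent higher and 2.51 percent lower). Between -VE and ENR, 4 members were called (Bambi and Id4 higher, Id1 and Id3 lower), beside 2.55 percent of genes (1.35 percent higher and 1.2 percent lower). The -VE medium differs from ENR in the BMP inhibitor, but also in GSK-3 Inhibitor XV, Pexmetinib, FGF2 and the source of R-Spondin 1, so their parts cannot be told apart. Bmp4 and Smad9 passed the filter on low counts only through the Hyper libraries, as did 7.85 percent of the genes tested, so such genes had to differ and their calls are no support for a trend of the set. The 3 comparisons share libraries, and libraries of 2 media lay apart without overlap for many genes (64.4, 67.0 and 45.7 percent of those tested, for Hyper against ENR, Hyper against -VE and -VE against ENR).

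**Figure D2:**
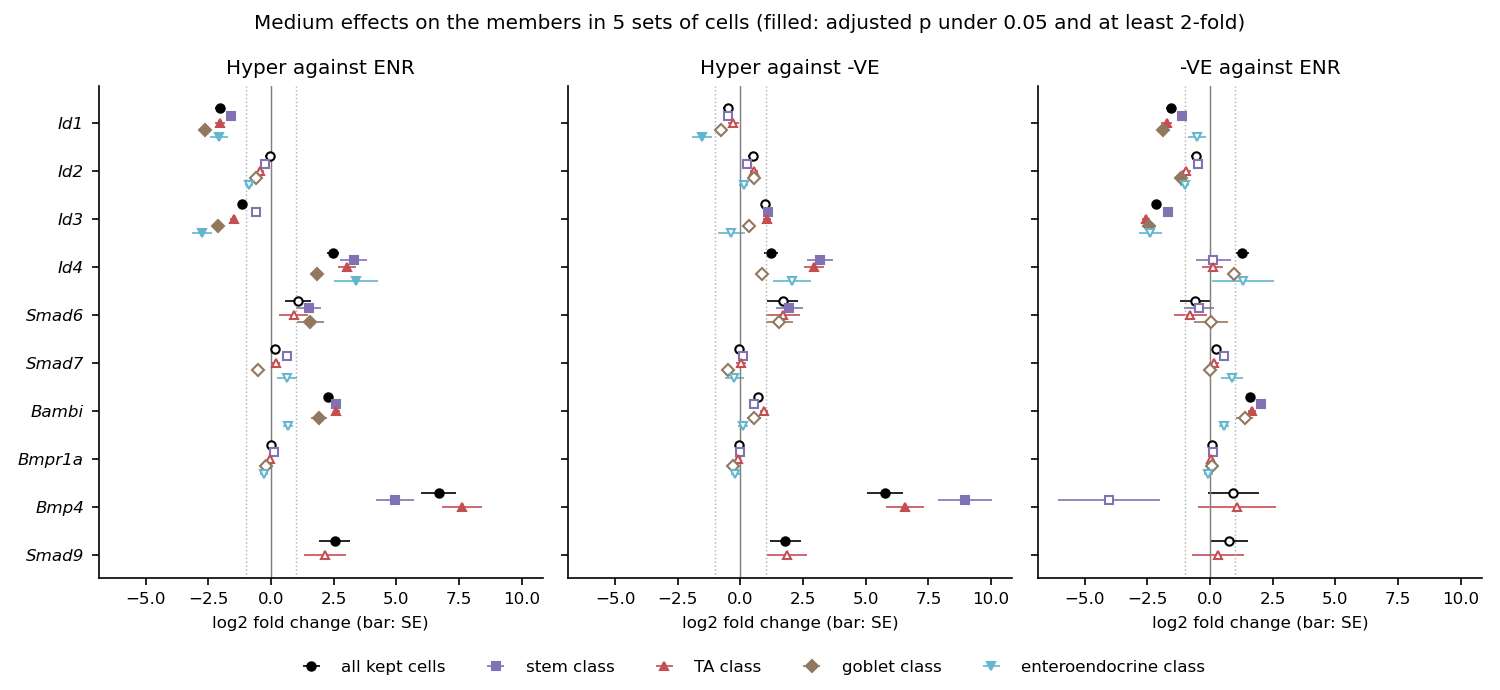
Fitted log2 differences of the members (x axis, bars are standard errors) for Hyper against ENR, Hyper against -VE and -VE against ENR, with 1 symbol for all kept cells and for each of 4 classes, filled where called. Id1 and Id3 lay below 0 in both comparisons with ENR in every set of cells tested, and Bmp4 lay furthest above 0 where Hyper was compared over all cells (6.70 and 5.76).

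The ligand Bmp4 was close to absent outside the Hyper medium. It gave 1, 1 and 3 UMIs in the ENR libraries, 7 and 2 in the -VE libraries and 140, 324 and 235 in the Hyper libraries. As a level, this was 0.95, 2.15 and 2.48 CPM in Hyper-organoids and at most 0.0599 CPM elsewhere, so every Hyper library lay above all others. Bmp4 passed the filter on low counts only through the Hyper libraries, so it had to differ and its adjusted p-values add no support. Against ENR, Bmp4 rose by 6.70 ± 0.69 (log2, ± SE; adjusted p = 9.54e-05, edgeR), and by the pooled UMIs the ratio was 107 (95% interval 45.5 to 330, counting error only). Within the culture series 2, 6 and C the ratio was 91.8, 257 and 69.2. Against -VE Bmp4 rose by 5.76 ± 0.73 (adjusted p = 0.000534), with a pooled ratio of 55.6 (29.1 to 122) and ratios of 15.9 and 176 within the series 2 and 6. Between -VE and ENR the ratio of pooled Bmp4 UMIs was 1.92 (0.578 to 7.30), which the few UMIs could not separate from 1 (adjusted p = 0.633). In Hyper-organoids 386 of the 699 UMIs of Bmp4 came from TA cells and 284 from stem cells, 15 from goblet cells and 8 from enteroendocrine cells. After thinning to 10000 UMIs per cell, 1.66 ± 0.594% of Hyper cells (SD, n = 3) held a Bmp4 UMI, against none of the cells in the ENR libraries. The mesenchymal marker sum given above was also higher in the Hyper libraries, and its part in the Bmp4 result was not tested.

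The receptor Bmpr1a, through which LDN193189 and the ligands both act, did not move beyond the spread. Its level was 46.8, 47.4 and 47.9 CPM in ENR, 45.4 and 53.9 CPM in -VE and 42.5, 48.9 and 51.1 CPM in Hyper libraries, and the groups overlapped. The difference between Hyper and ENR was 0.00 ± 0.08 (log2; adjusted p = 0.977, edgeR). The comparisons with -VE gave -0.07 ± 0.09 for Hyper and 0.07 ± 0.09 for -VE against ENR.

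Bambi, a membrane protein that resembles a type I receptor without its kinase, was lowest in ENR and highest in Hyper. It stood at 4.16, 4.39 and 3.87 CPM in ENR, 10.8 and 14.0 CPM in -VE and 17.6, 21.6 and 20.7 CPM in Hyper libraries, with no overlap between any of the media. Bambi rose by 2.27 ± 0.13 in Hyper against ENR (log2; adjusted p = 4.89e-06, edgeR) and by 1.58 ± 0.13 in -VE against ENR (adjusted p = 0.00193). Between Hyper and -VE the difference was 0.69 ± 0.13 (adjusted p = 0.00395), below the 2-fold limit. Within the culture series, Hyper stood 4.23-, 4.92- and 5.34-fold above ENR in the series 2, 6 and C.

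Smad9, one of the BMP-activated Smads, gave 6, 2 and 1 UMIs in ENR, 3 and 12 in -VE and 36, 22 and 14 in Hyper libraries. All Hyper libraries lay above all others, and 1 of the -VE libraries lay above all ENR libraries. It rose by 2.54 ± 0.62 in Hyper against ENR (log2; adjusted p = 0.00801, edgeR), with a ratio of pooled UMIs of 6.11 (95% interval 3.05 to 13.9). Within the culture series 2, 6 and C the ratio was 3.93, 8.74 and 12.4, so it depended on the ENR library. Smad9 passed the filter on low counts only through the Hyper libraries, so it had to differ and its adjusted p-values add no support. Against -VE it rose by 1.79 ± 0.62 (adjusted p = 0.043), and this call was lost under 7 alternatives, namely DESeq2 (adjusted p = 0.0956) and the fits without either -VE library, any single Hyper library or the second ENR library (0.0546 to 0.203). The related Smad1 stood at 38.4 to 43.2 CPM in all libraries.

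The inhibitory Smads did not pass the test over all cells. Smad6, which holds back BMP receptors, stood at 2.02, 2.35 and 1.46 CPM in ENR, 2.21 and 0.371 CPM in -VE and 3.73, 5.02 and 3.49 CPM in Hyper libraries. The Hyper libraries lay above all others, while the -VE libraries lay far apart, 1 at the ENR level and 1 below every other library. The difference of Smad6 was 1.07 ± 0.52 between Hyper and ENR (log2; adjusted p = 0.114, edgeR), and it passed with only the libraries of those media in the fit (adjusted p = 0.00518), under DESeq2 (1.09, adjusted p = 0.0466), with thinned cells (1.21, adjusted p = 0.0353) or without the first or the second -VE library (adjusted p = 0.0057 and 0.00549). Between Hyper and -VE it was 1.68 ± 0.62 (adjusted p = 0.0529), and it passed under 5 alternatives, which were DESeq2 (1.69, adjusted p = 0.00604), no filter on low counts (0.0343), thinned cells (1.83, adjusted p = 0.0164), a blocked fit (2.02, adjusted p = 0.0442) and the fit without the first -VE library (3.47, adjusted p = 0.00134). Without that library -VE against ENR also passed, with a fall of Smad6 (-2.39, adjusted p = 0.0258; -0.61 and 0.586 with all libraries). Smad7, the broader inhibitor that also acts on TGF-beta receptors, ranged from 6.20 to 8.67 CPM over all 8 libraries, and its differences between media were -0.07 to 0.22.

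Id1 and Id3, direct targets of BMP signalling in many cell types, were both lower in the media with LDN193189, but to unlike degrees. Id1 stood at 63.1, 66.8 and 64.5 CPM in ENR, 22.3 and 21.9 CPM in -VE and 11, 18.7 and 17.7 CPM in Hyper libraries, in an order without overlap. Id1 fell by 2.04 ± 0.18 in Hyper against ENR (log2; adjusted p = 3.81e-05, edgeR) and by 1.55 ± 0.20 in -VE against ENR (adjusted p = 0.00592), and the latter call was lost without the second -VE library (-1.55, adjusted p = 0.064). Between Hyper and -VE the difference was -0.49 ± 0.19 (adjusted p = 0.0637).

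Id3 ran in another order. It stood at 43.5, 45.9 and 39.9 CPM in ENR, 9.71 and 9.76 CPM in -VE and 16.9, 20.5 and 20.1 CPM in Hyper libraries, so that its lowest medium was -VE and not Hyper. The summed level of 10 genes of the stress response to cell isolation was also lowest in -VE (753 and 1003 CPM, against 1262 to 1695 CPM in the other organoid libraries), and its part in the Id3 order was not tested. Id3 fell by 2.15 ± 0.10 in -VE against ENR (log2; adjusted p = 0.000361, edgeR) and by 1.17 ± 0.09 in Hyper against ENR (adjusted p = 1.8e-05). Between Hyper and -VE it was 0.98 ± 0.10 higher in Hyper (adjusted p = 0.000198), just under the 2-fold limit, and past it without the first Hyper library (1.06, adjusted p = 7.71e-05).

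The ratio of Id1 to Id3, looked at because these orders differ, is a description. It was 1.45, 1.45 and 1.62 in ENR, 2.30 and 2.25 in -VE and 0.652, 0.914 and 0.877 in Hyper libraries, and the media did not overlap. An exact permutation test of the ratio could not give a p under 0.1 for Hyper against ENR. For the comparisons with -VE the limit was 0.2, so with so few libraries the test decides nothing.

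Id2, another inhibitor of E proteins, overlapped between ENR and Hyper. Its level was 54.2, 54.2 and 41.9 CPM in ENR, 36.1 and 31.6 CPM in -VE and 62.2, 44.7 and 38.6 CPM in Hyper libraries, with both -VE libraries below all others. None of its differences over all cells passed the test (-0.05 ± 0.18 for Hyper against ENR, 0.52 ± 0.20 for Hyper against -VE and -0.57 ± 0.20 for -VE against ENR, log2; adjusted p = 0.841, 0.0629 and 0.133, edgeR).

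Id4, scarce in ENR-organoids, moved against Id1 and Id3. It stood at 1.10, 0.852 and 1.23 CPM in ENR, 2.67 and 2.45 CPM in -VE and 7.85, 4.28 and 5.70 CPM in Hyper libraries, again without overlap. Id4 rose by 2.49 ± 0.24 in Hyper against ENR (log2; adjusted p = 7.41e-05, edgeR) and by 1.21 ± 0.26 in Hyper against -VE (adjusted p = 0.00642), where the value was 0.96 without the first Hyper library and the adjusted p was 0.0521 without the second -VE library. It also rose by 1.28 ± 0.26 in -VE against ENR (adjusted p = 0.0265). That call was lost without any single ENR library (adjusted p = 0.0519 to 0.0952), without either -VE library (1.21 and 1.33) and with thinned cells (1.06, adjusted p = 0.0628). No fitted class called this rise of Id4. Goblet cells, where Id4 was highest, were 4.89 to 5.65% of ENR cells and 7.24 and 8.83% of -VE cells.

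The deposited classes differed widely in these genes. Class levels are given as plain CPM, a description without a test, for classes of at least 20 cells in a library. In ENR-organoids Id1 was highest in enterocyte progenitors and TA cells (72.1 ± 7.69 and 71.1 ± 7.73 CPM; SD, n = 3), which did not differ beyond their spread and, by the marker sums given above, are not cleanly apart. Enterocytes and stem cells followed (44.6 ± 6.69 and 42.1 ± 3.53 CPM), then goblet and enteroendocrine cells (24.6 ± 2.00 and 21.2 ± 4.81 CPM), again pairs within their spread, and Paneth cells were lowest (9.26 ± 1.29 CPM). Id3 had TA cells first (47.3 ± 7.74 CPM) and Paneth cells last (7.50 ± 2.53 CPM), with most neighbours between them inside the spread.

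In the stem class Id1 stood at 15.1 ± 3.59 CPM in Hyper (SD, n = 3) and Id3 at 25.6 ± 1.37 CPM, against 42.1 ± 3.53 and 35.2 ± 7.50 CPM in ENR. Enterocytes had the highest Id3 of any class in both media with LDN193189, at 21.7 ± 0.685 CPM in -VE (n = 2) and 34.0 ± 0.0968 CPM in the 2 Hyper libraries with enough such cells. Those 2 Hyper libraries held only 58 and 21 enterocytes, so this small SD leaves out the counting error. The Hyper mean moved beyond this SD under 1 alternative. Revival stem cells reached 20 cells in 1 Hyper library alone (26 cells), where Id1 stood at 39.1 CPM and Id2 at 73.5 CPM.

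Bambi and Id4 each stood highest in 1 secretory class. Bambi was highest in enteroendocrine cells in every medium, at 99.8 ± 24.5 CPM in ENR (n = 3), 138 ± 24.2 CPM in -VE (n = 2) and 153 ± 32.4 CPM in Hyper (n = 3; SD in each), and lowest in enterocytes (1.00 ± 0.231 CPM in ENR). Enteroendocrine cells gave 30.3% of all Bambi UMIs in ENR-organoids but 14.3% in -VE and 12.9% in Hyper, where stem and TA cells gave most of them. Id4 was highest in goblet cells, at 15.7 ± 5.05 CPM in ENR, 31.3 ± 6.66 CPM in -VE and 58.7 ± 6.77 CPM in Hyper, and stood at 0.334 ± 0.178 CPM in ENR stem cells. Goblet cells gave 57.9% of Id4 UMIs in ENR, 80.8% in -VE and 43.0% in Hyper, where TA and stem cells gave 31.6 and 23.1%, although goblet cells were 4.89 to 5.65%, 7.24 and 8.83%, and 5.62 to 6.61% of the cells.

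**Figure D3:**
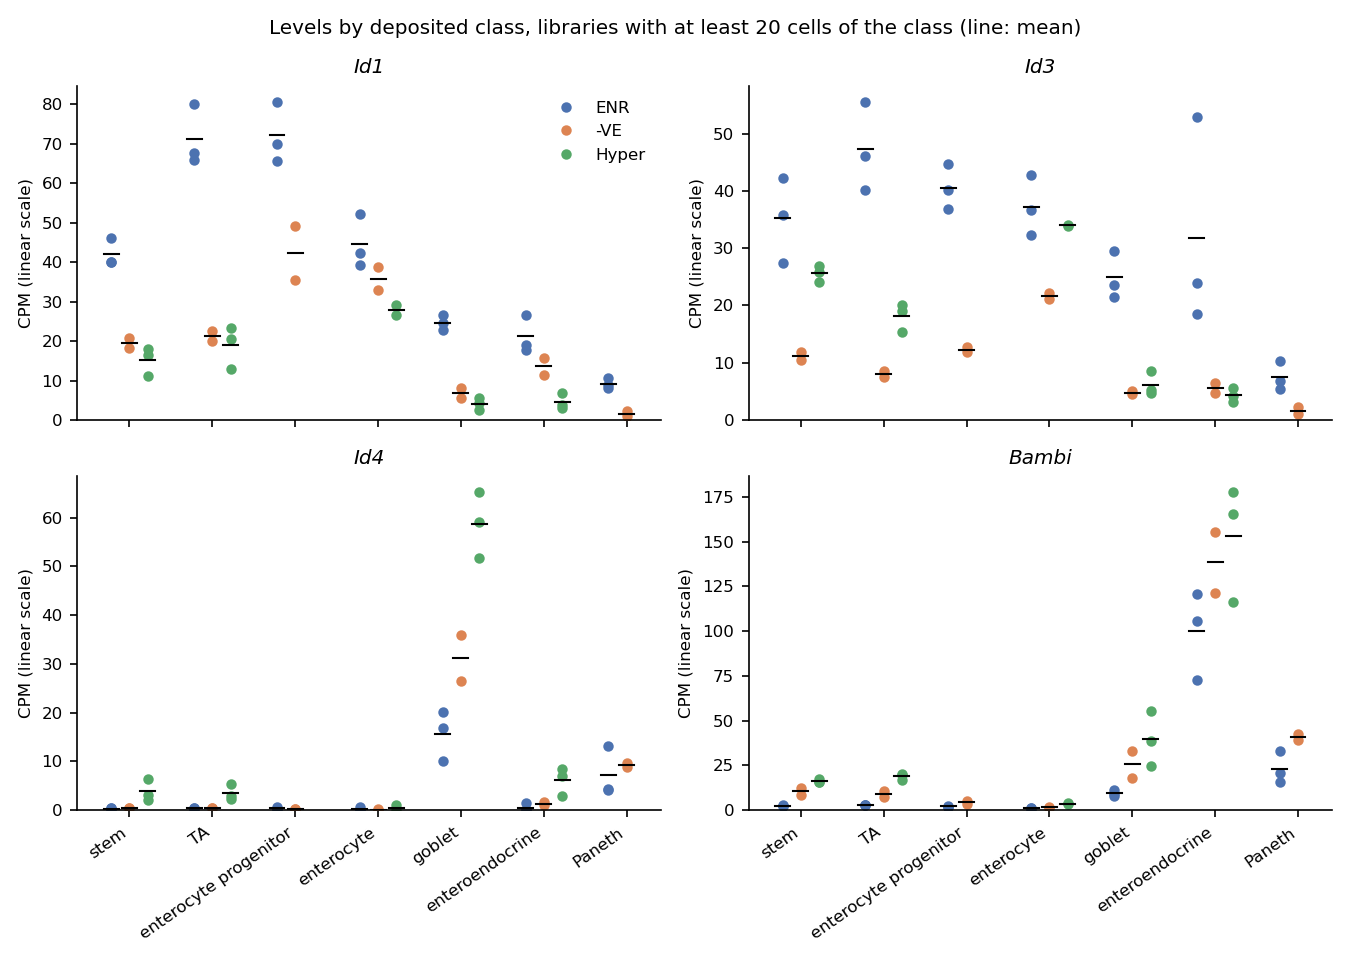
Levels of Id1, Id3, Id4 and Bambi in 7 deposited classes (plain CPM, linear axis from 0, 1 point per library with at least 20 cells of the class, coloured by medium, lines are means). Id4 stood highest in goblet cells (58.7 CPM in Hyper), Bambi in enteroendocrine cells (153 CPM in Hyper), and Id1 in enterocyte progenitors and TA cells of ENR-organoids.

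Within the stem class, 9 members could be tested over 13920 genes (Smad9 had too few UMIs), of which Bmp4 passed the filter on low counts only through the Hyper libraries (as did 8.62 percent of genes) and so had to differ. Between Hyper and ENR 5 were called (Id4, Bmp4, Bambi and Smad6 higher, Id1 lower), beside 18.0 percent of genes (15.2 percent higher and 2.8 percent lower). For Hyper against -VE 4 were called (Bmp4, Id4, Smad6 and Id3 higher), beside 16.5 percent (14.7 and 1.76 percent), and between -VE and ENR 3 were called (Bambi higher, Id1 and Id3 lower), beside 0.503 percent (0.23 and 0.273 percent). Id1 fell by 1.59 ± 0.17 in Hyper against ENR (log2; adjusted p = 7.5e-05, edgeR) and by 1.11 ± 0.19 in -VE against ENR (adjusted p = 0.0254), the latter lost without any single ENR or -VE library. Id3 rose by 1.09 ± 0.15 in Hyper against -VE (adjusted p = 0.000445; 0.97 without the second -VE library). It stood at 36.3, 43.2 and 29.0 CPM in ENR, 12.4 and 10.7 CPM in -VE and 22.7, 24.6 and 26.1 CPM in Hyper stem cells.

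Id4 was near its floor in stem cells of ENR and -VE (1 to 14 UMIs per library), while Hyper stem cells gave 315, 112 and 115 UMIs. It rose by 3.31 ± 0.53 against ENR and by 3.18 ± 0.51 against -VE (log2; adjusted p = 0.000824 and 0.00107, edgeR), and between -VE and ENR the difference was 0.14 ± 0.70 (adjusted p = 0.951). Smad6 passed in stem cells (1.51 ± 0.50 against ENR and 1.96 ± 0.53 against -VE; adjusted p = 0.0305 and 0.0143), the first of them lost without any one ENR library or without the second Hyper library. Bmp4 gave 0, 1 and 1 UMIs in ENR stem cells, none in -VE stem cells and 64, 105 and 115 in Hyper stem cells. Bambi rose by 2.58 ± 0.16 in Hyper and by 2.05 ± 0.17 in -VE, each against ENR (adjusted p = 4.58e-06 and 0.00252).

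Within the TA class, 10 members were tested over 14553 genes, of which Bmp4 and Smad9 passed the filter only through the Hyper libraries (as did 8.36 percent of genes). Between Hyper and ENR 5 were called (Bmp4, Id4 and Bambi higher, Id1 and Id3 lower), beside 20.9 percent of genes (17.2 percent higher and 3.78 percent lower). Hyper against -VE gave 3 (Bmp4, Id4 and Id3 higher), beside 17.8 percent (15.5 and 2.32 percent), and between -VE and ENR 3 (Bambi higher, Id1 and Id3 lower), beside 1.03 percent (0.694 and 0.337 percent). Id3 fell by 2.55 ± 0.16 in -VE and by 1.49 ± 0.13 in Hyper against ENR (log2; adjusted p = 0.000528 and 3.09e-05, edgeR), and rose by 1.06 ± 0.15 in Hyper against -VE (adjusted p = 0.000694), with the fold just under 2 without the first -VE library (0.97), the second Hyper library (0.98) or with thinned cells (0.91). Id1 fell by 1.73 ± 0.22 in -VE against ENR (adjusted p = 0.00852; 0.0519 and 0.0791 without the first or second -VE library). Id4 again differed little between -VE and ENR (0.10 ± 0.42, adjusted p = 0.936). Smad6 stood 1.69 ± 0.67 higher in Hyper than in -VE (adjusted p = 0.0657) and passed under 5 alternatives, namely DESeq2 (0.0157), no filter (0.0279), the block (2.07, adjusted p = 0.036), thinned cells (0.00982) and without the first -VE library (0.00277). Bambi stood 0.94 ± 0.15 higher in Hyper than in -VE (adjusted p = 0.00117), just under the 2-fold limit, and was called with thinned cells (1.05), without the first Hyper library (1.02) and without the second -VE library (1.19). Smad9 stood 2.16 ± 0.84 higher in Hyper than in ENR (adjusted p = 0.0555) and passed with no filter (0.0441), without either -VE library (0.0179 and 0.0186) and with the deepest 5% of cells left out (0.0346). Against -VE its adjusted p was 0.0905, and 0.016 without the second -VE library. The blocked fit also called Id2 in -VE against ENR (-1.06, adjusted p = 0.00777; -0.95 and 0.0282 without it).

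Goblet cells gave 8 tested members among 11714 genes. Between Hyper and ENR 5 were called (Id4, Bambi and Smad6 higher, Id1 and Id3 lower), beside 13.3 percent of genes (10.7 percent higher and 2.64 percent lower), and between -VE and ENR 3 were called, all lower (Id1, Id2 and Id3), beside 1.14 percent (0.529 and 0.606 percent). Of these the Id2 call was lost without the first or second ENR library or either -VE library (adjusted p = 0.0700 to 0.293) and with thinned cells (-0.64, adjusted p = 0.274). In Hyper against -VE none was called by edgeR (9.87 percent of genes were, 8.72 percent higher and 1.15 percent lower), although 1 member, Id4, had an adjusted p under 0.05 (0.87 ± 0.21, log2; adjusted p = 0.0127). There Smad6 was called with no filter (1.55, adjusted p = 0.0081) and without the first Hyper library (1.80, adjusted p = 0.0382). Id1 was called without the second Hyper library (-1.01, adjusted p = 0.0362). Without the first -VE library the values were 2.69 for Smad6 and 1.12 for Id4. Id1 fell by 2.64 ± 0.23 and Id3 by 2.10 ± 0.21 in Hyper against ENR (log2; adjusted p = 9.92e-06 and 2.8e-05, edgeR). Smad6, which passed the filter here only through the Hyper libraries, rose by 1.58 ± 0.55 (adjusted p = 0.048), a call lost under 8 alternatives, which were DESeq2 (0.0639), the culture block (0.0554), the deepest 5% of cells left out (0.0567) and the fits without any single ENR library, the second or the third Hyper library (0.0612 to 0.153). Id4 in goblet cells of -VE stood 0.97 ± 0.24 above ENR (adjusted p = 0.0617; 1.07 and 0.008 with the block), and Bambi 1.38 ± 0.35 above it (adjusted p = 0.0604; 1.40 and 0.00263 with the block, and past the threshold under 8 alternatives in all), so that 5 members were called in goblet cells between -VE and ENR with the block.

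Enteroendocrine cells gave 7 tested members among 11050 genes. Between Hyper and ENR 3 were called (Id4 higher, Id1 and Id3 lower), beside 7.4 percent of genes (5.96 percent higher and 1.44 percent lower). Id2 was also called in this comparison under 3 alternatives. Id4 passed the filter only through the Hyper libraries, and its call was lost under DESeq2 (adjusted p = 0.0518) and without the first or the third ENR library (0.0942 and 0.0661), while the Id1 call was lost with thinned cells (-1.33, adjusted p = 0.0769). In Hyper against -VE 1 was called, Id1, which fell by 1.53 ± 0.40 (log2; adjusted p = 0.0464, edgeR; 0.0617 in the blocked fit, and lost under 11 alternatives in all, with a value of -0.66 in thinned cells), beside 4.01 percent (3.52 percent higher and 0.489 percent lower). Between -VE and ENR none was called by edgeR, beside 0.19 percent (0.118 and 0.0724 percent), but with the block Id2 (-1.06, adjusted p = 0.0481) and Id3 (-2.50, adjusted p = 0.0299) passed. Id3 in these cells gave 68, 34 and 18 UMIs in ENR, 8 and 13 in -VE and 15, 9 and 6 in Hyper libraries, so a few UMIs carried these values.

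Whether a medium effect differed between TA and stem cells was tested as an interaction over 14704 genes, at an adjusted p under 0.05 with no fold limit. It passed for 5 members in Hyper against ENR (15.1 percent of genes), for 2 in Hyper against -VE (11.7 percent) and for 3 in -VE against ENR (1.29 percent). Id3 fell further in TA than in stem cells in both comparisons with ENR, by an added -0.93 ± 0.08 for Hyper (log2; adjusted p = 4.29e-07, edgeR) and -0.88 ± 0.11 for -VE (adjusted p = 0.000286). Id1 did so as well (-0.44 ± 0.09 and -0.62 ± 0.10; adjusted p = 0.00179 and 0.00261), but both of these were lost with cells thinned to equal UMIs (-0.20 for Hyper and -0.46 for -VE; adjusted p = 0.459 and 0.114). The Hyper value was also lost with the deepest 5% of cells left out (-0.20, adjusted p = 0.217), and the -VE value without the second ENR library (-0.59, adjusted p = 0.052).

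The share of cells with a UMI comes from the same counts as the levels and is given as a description. After thinning each cell to 10000 UMIs (63 to 280 shallower cells per library left out), an Id1 UMI was held by 33.3 ± 1.37% of ENR cells (SD, n = 3), 16.9 ± 0.168% of -VE cells (n = 2) and 13.2 ± 3.41% of Hyper cells (n = 3), against 62.2, 43.9 and 37.3% without thinning. Id3 UMIs were held by 25.7 ± 1.27%, 8.20 ± 0.326% and 15.8 ± 1.44% of cells. For Bambi the shares were 4.02 ± 0.229%, 10.3 ± 2.06% and 17.2 ± 0.476%, and for Id4 1.15 ± 0.0647%, 2.18 ± 0.233% and 4.31 ± 1.01%. For Id2 the shares were 29.3 ± 3.44%, 24.7 ± 2.20% and 34.4 ± 7.70%, with -VE lowest and Hyper above ENR, unlike the TMM-scaled levels. Enterocytes, the class with least Bambi, set a level that free RNA could give at this same depth, although they are not known to lack either gene. A Bambi UMI was held by 0.306 to 1.61% of enterocytes in the ENR libraries, 2.07 and 2.68% in -VE and 1.75% in the Hyper library with most of them (exact 95% interval 0.0444 to 9.39%). An Id4 UMI was held by 2 of 269 enterocytes in the third ENR library (0.743%, interval up to 2.66%), and by 0 of 186 and 0 of 327 in the other ENR libraries, 0 of 145 and 0 of 224 in -VE and 0 of 57 in that Hyper library (interval up to 6.27%). The Id4 share of ENR cells, 1.15%, lay below the upper bound of that interval in the third ENR library. This sets all cells against enterocytes alone, and goblet cells gave 57.9% of the Id4 UMIs in ENR-organoids. The part of free RNA in the Id4 share was not tested. No class is known to lack Id1, Id2 or Id3, so for them the share that free RNA alone gives was not measured.

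The genes of the pathway, the members among them, were counted in lists of ligands, antagonists, receptors, Smads, targets and E proteins. TGF-beta and activin genes were listed beside them. The shares of all genes called, to be set beside each count that follows, were 18.2 percent higher and 4.75 percent lower in Hyper against ENR, 16.1 and 2.51 percent in Hyper against -VE, and 1.35 and 1.2 percent in -VE against ENR. Of 12 BMP ligands 8 were tested (1 of them, Bmp4, only through the Hyper libraries), and 4 were higher in Hyper than in ENR and 3 than in -VE. Gdf11, a ligand of the TGF-beta family that signals mostly through activin receptors, stood at 0.518 to 0.593 CPM in ENR, 0.664 and 0.804 CPM in -VE and 5.97 to 8.35 CPM in Hyper libraries. Gdf11 rose by 3.65 ± 0.18 and 3.23 ± 0.21 (log2, Hyper against ENR and against -VE; adjusted p = 3.3e-06 and 3.05e-05, edgeR). Bmp8b rose by 3.13 ± 0.31 and 1.85 ± 0.33 in the same comparisons (adjusted p = 7.26e-05 and 0.00245). Bmp2, another ligand, moved the other way between -VE and ENR, where it fell by 1.14 ± 0.27 (adjusted p = 0.0391), from 11.5, 11 and 15.1 CPM to 5.30 and 6.02 CPM, and Hyper libraries held 5.14, 9.98 and 7.63 CPM. Bmp7 rose by 1.13 ± 0.14 in Hyper against ENR (adjusted p = 0.000219).

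Of 12 BMP antagonists 5 were tested, and 4 of them were higher in Hyper than in ENR and than in -VE (Fst, Fstl1, Chrd and Nbl1), beside 18.2 and 16.1 percent of all genes, while none was called between -VE and ENR. Fstl1, a secreted follistatin-like protein, stood at 0.267 to 0.346 CPM in ENR, 0.796 and 0.152 CPM in -VE and 23.1, 15.1 and 10.4 CPM in Hyper libraries. Fstl1 rose by 5.68 ± 0.57 in Hyper against ENR (log2; adjusted p = 8.71e-05, edgeR). Fst, which binds activins and some BMPs, rose by 3.79 ± 0.36 (adjusted p = 6.28e-05), and Chrd, which binds BMPs, by 3.70 ± 0.57 (adjusted p = 0.000835). Chrd gave at most 9 UMIs per library outside Hyper and passed the filter only through the Hyper libraries, so it had to differ and adds no support to the count. Noggin itself (Nog) and Grem1 had too few UMIs to be tested.

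Of 10 receptors and co-receptors 8 were tested and 2 were called between Hyper and ENR, near the 22.9 percent of all genes called, Rgma (a BMP co-receptor) and Acvrl1 (a type I receptor best known in endothelium, which passed the filter only through Hyper), each higher in Hyper than in ENR and than in -VE. All 13 Smads and regulators were tested and 1 was called, the member Smad9. Acvrl1 and Smad9 had to differ by that filter, so their calls add no support to these counts. Smad4, the common partner, was 0.41 ± 0.05 lower in Hyper than in ENR (log2; adjusted p = 0.000187, edgeR), at 76.5 to 78.2 CPM in ENR, 64.8 and 68.7 CPM in -VE and 56.2 to 60.2 CPM in Hyper libraries, which stayed inside the 2-fold limit. Of the 3 E proteins none was called by edgeR, with 2 at an adjusted p under 0.05 between Hyper and ENR. The target list held 13 tested genes, of which 7 were higher and 2 lower in Hyper against ENR, 6 higher in Hyper against -VE, and 2 higher and 2 lower in -VE against ENR (beside 18.2 and 4.75, 16.1, and 1.35 and 1.2 percent of all genes). Smad9, Msx2 and Tbx20 of this list passed the filter only through the Hyper libraries, so they had to differ and add no support to these counts. The lower genes were Id1 and Id3 in both cases, and the 2 higher in -VE against ENR were Bambi and Id4. These 4 calls are the member calls given above, so no other target was called between -VE and ENR. Beside Id4, Bambi and Smad9, which is on this list too, Msx1, a homeobox gene, rose by 2.82 ± 0.21 in Hyper against ENR (adjusted p = 2.1e-05), and Msx2, Tbx20 and Hey1 were called higher as well.

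Of 12 TGF-beta and activin genes 11 were tested, and 6 were higher in Hyper than in ENR and than in -VE (18.2 and 16.1 percent of all genes), although 4 of the 11 (Tgfbr3, Inha, Inhba and Inhbb) passed the filter only through the Hyper libraries. Tgfb1 stood at 1.22 to 1.92 CPM in ENR, 1.81 and 1.84 CPM in -VE and 18.6, 23 and 24.4 CPM in Hyper libraries, a rise of 3.80 ± 0.18 against ENR (log2; adjusted p = 2.63e-06, edgeR). Tgfb2, Tgfbr3 and Inha rose as well, and none of the list was called between -VE and ENR. Tgfbr3 and Inha passed the filter only through Hyper, so they had to differ and add no support to the count of 6.

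**Figure D4:**
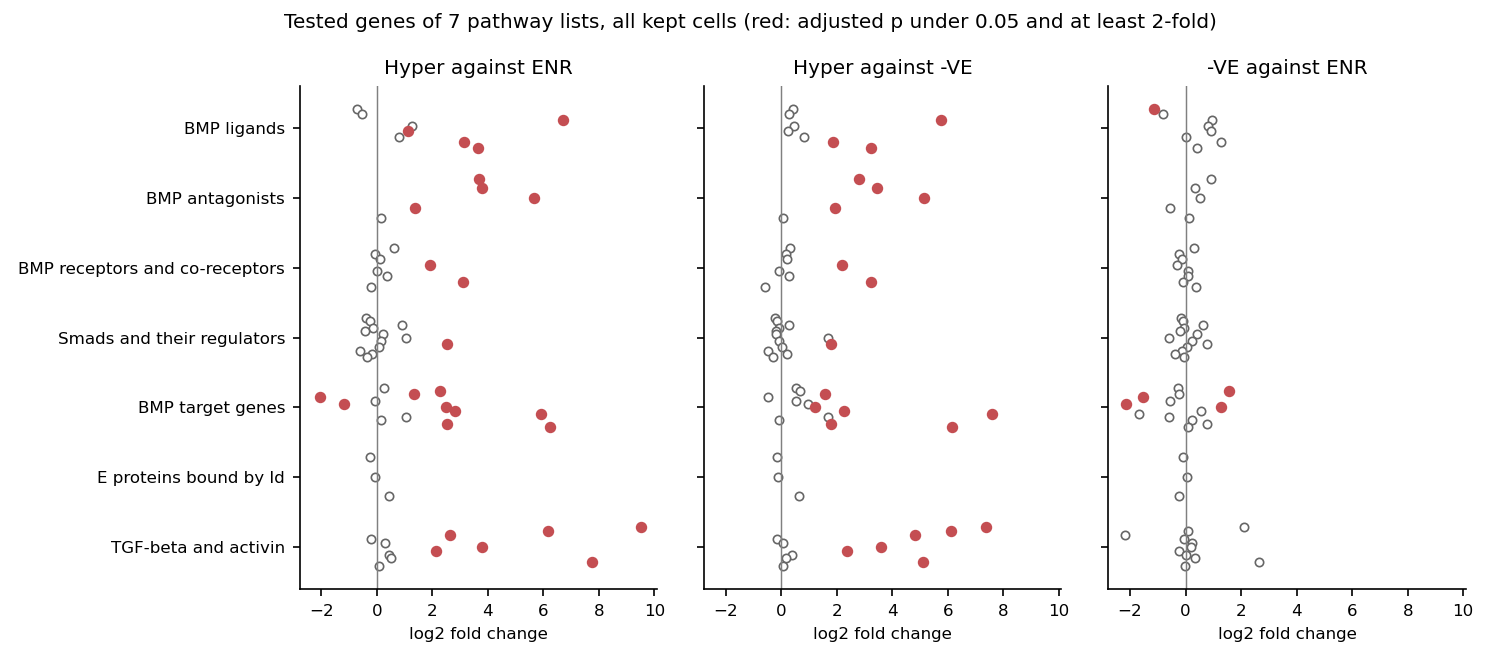
Log2 differences (x axis) of the tested genes of 7 pathway lists over all kept cells, for the 3 comparisons, with 1 point per gene, red where called. Called genes lay above 0 in Hyper-organoids except for Id1 and Id3 among the targets, and few genes were called between -VE and ENR.

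Across the 50 sums of class and library (8 classes, which share libraries and depth), the gene of the 9765 compared whose log2 CPM ran most like that of Id1 was Id3 (r = 0.856), followed by Fzd5 (0.853), Lrig3 (0.852), Kdsr (0.845) and Krcc1 (0.838). For Id3 the list began with Id1 (0.856), Ccdc28a (0.794), Rbks (0.784), Dnajc30 (0.777) and Kdsr (0.775). Bambi and Id4 ran against Id1 (r = -0.758 and -0.744). These are descriptions of the same cells and not independent of the levels above.

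The colonic crypts held far more Id1 and Id3 than any organoid library, although the tissues and preparations differ and were not compared by a test. The stress gene sum was also higher there, at 8807 CPM in normal and 7846 CPM in DSS crypts, against 753 to 1695 CPM in organoid libraries. Every organoid medium also held a BMP inhibitor, and the parts of these differences were not tested. With 1 library per group there is no test, and intervals cover counting error only. Id1 stood at 543 CPM in normal crypts (95% interval 532 to 553) and 407 CPM in DSS crypts (400 to 414), and Id3 at 375 CPM (366 to 383) and 213 CPM (208 to 218). Among genes of at least 1 CPM in either library, on the log2(CPM + 1) scale, Id2 was the only member past 2-fold, at 148 CPM (143 to 154) and 64.1 CPM (61.4 to 66.9), a log2 difference of -1.20, beside 1.53 percent of the 12440 genes that were at least 2-fold lower in DSS (3.55 percent were at least 2-fold higher). With a pseudocount of 0.1 CPM Id2 was again the only member, while 319 genes were lower and 691 higher in place of 190 and 442. Bmp4 and Smad9 lay under that level filter. Smad6 stood at 23 and 13.8 CPM, Smad7 at 117 and 115 CPM, Bmpr1a at 37.3 and 29.7 CPM and Bambi at 9.80 and 10.6 CPM. Id4 was low (2.11 and 3.73 CPM), Bmp4 gave 2 and 1 UMIs and Smad9 gave 6 and 12.

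The cells of the colonic libraries fell into different clusters, and leukocyte markers summed to 161 CPM in normal and 271 CPM in DSS crypts. Clusters with Ptprc UMIs in over 50% of cells were then left out, as were other cells holding Ptprc (20.4% of normal and 24.6% of DSS cells). The difference of Id2 was then -1.29. Of the 6 clusters left out, 1 (44 cells) held more mesenchymal than leukocyte markers (10587 and 1465 CPM), so not only leukocytes were removed. Beside it, 207 of 11848 genes were at least 2-fold lower in DSS and 270 at least 2-fold higher. At least 20 cells of both libraries were held by 7 clusters, of which the clusters 0 and 11 held Ptprc UMIs in 88.4 and 93.5% of cells. In the other 5, Id2 and Id3 were each lower in DSS in 4, with ratios of DSS to normal of 0.279 to 1.12 for Id2 and 0.533 to 1.36 for Id3. Id1 was lower in 2 of the 5 (0.601 to 1.79), and in the cluster deposited as stem cells it stood at 450 CPM in normal and 804 CPM in DSS crypts. Of the clusters held almost wholly by the normal library, 1 (274 normal cells and 1 DSS cell) held 811 CPM of Id1, another (77 and 1) 968 CPM, another (93 and 1) 188 CPM and another (36 and 2) 332 CPM, so the lower Id1 in the whole DSS library and the cell types it holds cannot be told apart. A cluster of 59 cells with the highest enteroendocrine marker sum (38582 CPM) held 1198 CPM of Id2, 653 CPM of Id3 and 13.6 CPM of Smad9, the highest of any cluster for each. The Smad9 value rests on 6 UMIs, against 528 of Id2 and 288 of Id3.

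**Figure D5:**
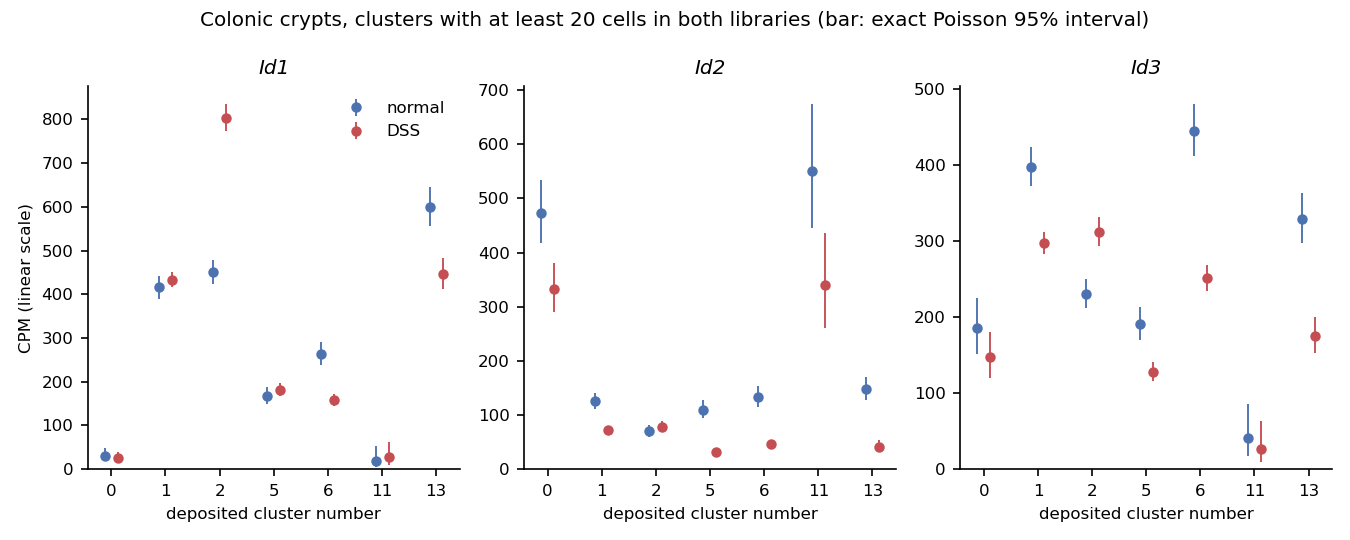
Levels of Id1, Id2 and Id3 (CPM, linear axis from 0) in the 7 deposited colonic clusters with at least 20 cells in both libraries, blue for normal and red for DSS crypts, with exact Poisson 95% intervals. Clusters 0 and 11 are rich in Ptprc, and Id2 and Id3 lay lower in DSS in all 7 but the stem cluster, number 2, where Id1 stood at 450 and 804 CPM. The intervals of Id3 overlapped in clusters 0 and 11, with 5 DSS and 7 normal UMIs in cluster 11. Those of Id2 overlapped in the stem cluster.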

How the data were processed

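Single-cell RNA-seq (10x 3′ v3) was measured in 8 organoid and 2 colonic libraries. The authors deposited UMI counts per gene and cell, aligned to mm10 with Cell Ranger (3.0.0 in the submitters' notes, 3.1.0 in the matrix headers) and handled with Seurat 3.1.4, together with the kept cells and their classes. The stated filter was at least 1500 genes and at most 25% mitochondrial UMIs, but kept cells went down to 501 genes and reached 20.0% mitochondrial UMIs. The deposited counts were summed per library and class, leaving each library as 1 replicate, and fitted in edgeR 4.0.16 (TMM scaling, filterByExpr, quasi-likelihood test, Benjamini-Hochberg adjustment over all genes tested, all 8 organoid libraries in 1 fit). DESeq2 1.42.0 (R 4.3.3), no filter, only the groups compared, the culture series as a block, each library left out, a stricter filter on cells, thinning to 10000 UMIs per cell and the 5% of cells with the most UMIs left out (possible doublets; no caller was run) were alternatives. The fits were checked on simulated counts. Organoid and colonic libraries shared at most 5 cell barcodes in a pair. Intervals cover counting error only.

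The members, pathway lists and tests were chosen with earlier results of these data known. All 10 members were described, and of each list at most 4 other called genes with the smallest adjusted p were named, as were the 5 genes most like Id1 and Id3 in pattern. Smad1, Smad4, Inhba, Inhbb and the untested Nog and Grem1 were named after their values were seen. Libraries of the same culture series deviated together in ENR and Hyper (r = 0.192, 0.170 and 0.436), and the titles give the series, so the blocked value is printed where it changes a call. Promoter windows came from RefSeq (GRCm38.p6) and gene positions from GENCODE (GRCm38). No protein sequence was used here.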

Additional observations from a re-analysis of the deposited data

Results flagged for a closer look

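The medium effect differed between TA and stem cells of the same libraries for several members, by a test of that difference (edgeR quasi-likelihood interaction, Benjamini-Hochberg adjusted p under 0.05). In Hyper against ENR the log2 difference in TA cells minus that in stem cells was -0.44 for Id1 (adjusted p = 0.00179), with -1.59 in stem and -2.02 in TA cells. For Id3 it was -0.93 (adjusted p = 4.29e-07), with -0.58 and -1.49. For Smad6 it was -0.69 (adjusted p = 0.0498), with 1.51 and 0.91, and for Smad7 -0.48 (adjusted p = 0.0492), with 0.64 and 0.19. Bmpr1a gave -0.18 (adjusted p = 0.0396), from values near 0 in both classes (0.12 and -0.05).

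In Hyper against -VE the same difference was 0.29 for Id2 (adjusted p = 0.0177; 0.25 in stem and 0.54 in TA cells) and 0.40 for Bambi (adjusted p = 0.00358; 0.53 and 0.94). In -VE against ENR it was -0.62 for Id1 (adjusted p = 0.00261; -1.11 and -1.73), -0.49 for Id2 (adjusted p = 0.0065; -0.47 and -0.95) and -0.88 for Id3 (adjusted p = 0.000286; -1.66 and -2.55). The differences for Id3 passed under all 13 alternatives run, while those for Smad6, Smad7 and Bmpr1a in Hyper against ENR were lost under 10 of the 13, those for Id2 under 4 each, those for Id1 under 2 each and that for Bambi without the second -VE library alone (0.43, adjusted p = 0.0723).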

How the results depend on the processing

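No difference past the test's threshold changed sign under any alternative run. Of the results for single members, 2593 values kept their side of the threshold or stayed within the replicate spread. Of the rest, 102 lost a call, 55 gained one and 33 moved beyond that spread. Among the values that kept their side of the threshold, 77 that were not called changed sign, in 36 results. With 1 library left out at a time, the members called over all kept cells numbered 6 to 7 (Hyper against ENR), 1 to 3 (Hyper against -VE) and 2 to 4 (-VE against ENR). In stem cells they numbered 4 to 5, 3 to 4 and 2 to 3 in that order, in TA cells 5 to 6, 2 to 5 and 2 to 3, in goblet cells 4 to 5, 0 to 2 and 2 to 4, in enteroendocrine cells 2 to 4, 0 to 1 and 0 to 1, and for the difference between TA and stem cells 2 to 4, 1 to 2 and 2 to 3. Where 1 of the 2 -VE libraries was left out, the other was assumed to vary like the other groups. With all 8 libraries, the shares of all genes called were 22.9, 18.6 and 2.55 percent in all cells, in that order. They were 18.0, 16.5 and 0.503 percent in stem cells and 20.9, 17.8 and 1.03 percent in TA cells. Goblet cells gave 13.3, 9.87 and 1.14 percent, and enteroendocrine cells 7.4, 4.01 and 0.19 percent. For the difference between TA and stem cells they were 15.1, 11.7 and 1.29 percent. With the culture series as a replicate block, goblet cells gave 5 members between -VE and ENR (3 without it), and enteroendocrine cells gave 0 between Hyper and -VE (1 without it) and 2 between -VE and ENR (0 without it). Beside the blocked values printed with the results above, the block changed no other call of a member. In enteroendocrine cells, Hyper against -VE also gave 0 under DESeq2, with only the compared groups, with thinned cells and with the 5% of cells of most UMIs left out, and -VE against ENR gave 1 under DESeq2 or thinning and 2 with no filter on low counts or with those 5% left out. Goblet cells gave 1 between Hyper and -VE with no filter. For the difference between TA and stem cells, Hyper against ENR gave 2 under DESeq2 and 1 with thinned cells or with those 5% left out (5 as reported), Hyper against -VE gave 1 under DESeq2 and with thinned cells (2 as reported), and -VE against ENR gave 1 with thinned cells (3 as reported). The share of ENR cells with an Id1 UMI was 62.2% without thinning and 33.3% with it. Over all genes, the calls between -VE and ENR ranged from 96 to 562 (409 as reported) in all cells, from 8 to 183 (70) in stem, 39 to 268 (150) in TA, 11 to 351 (133) in goblet and 3 to 268 (21) in enteroendocrine cells. In goblet cells they ranged from 829 to 2014 (1563) for Hyper against ENR and 520 to 1626 (1156) for Hyper against -VE, and in enteroendocrine cells from 563 to 1256 (818) and 134 to 893 (443). In the colonic libraries a pseudocount of 0.1 CPM gave 691 genes higher and 319 lower in DSS (442 and 190 as reported). The cause of these changes was not tested. With 2 -VE libraries, and with members such as Bmp4 and Smad9 at a few UMIs outside Hyper, depth limits what the comparison of -VE with ENR can show. Of the deposited classes, stem, TA, goblet and enteroendocrine cells reached 20 cells in every organoid library and were fitted, a limit set by that rule, and the other classes were not tested. A call lost without a library, as for Id4, Id1 and Smad9 above, rests on few samples.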

Other observations

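Enterocytes were not tested here, since a class was fitted only where every organoid library held at least 20 of its cells and 1 Hyper library held fewer enterocytes, although the other 7 libraries could have been fitted. Their levels differed from those of the whole culture for several members. Bmpr1a, which did not pass the test over all cells, stood in enterocytes at 36.2 ± 1.66 CPM in ENR (SD, n = 3), 49.1 ± 9.54 CPM in -VE (n = 2) and 89.4 ± 23.2 CPM in 2 Hyper libraries, in each of which it was above every ENR and -VE library. Smad7 stood there at 9.32 ± 0.378, 14.5 ± 3.0 and 20.0 ± 2.20 CPM in the same order. The Hyper values rest on 281 UMIs of Bmpr1a and 66 UMIs of Smad7. In enteroendocrine cells Bmpr1a ran the other way, at 92.5 ± 14.0 CPM in ENR, 82.2 ± 16.1 CPM in -VE and 72.2 ± 11.7 CPM in Hyper (n = 3, 2 and 3), with overlapping libraries.

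The mean level of Id2 was lower in -VE than in ENR in 6 of the 7 classes with levels in both, all but the Paneth class. In TA cells it stood at 67.4 ± 4.79 CPM in ENR, 34.6 ± 3.68 CPM in -VE and 54.4 ± 13.4 CPM in Hyper (SD, n = 3, 2 and 3), and in enterocyte progenitors at 30.6 ± 6.91 CPM in ENR and 14.2 ± 3.22 CPM in -VE. The stress gene sum given beside Id3 was also lowest in -VE, and its part in the Id2 levels was not tested.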
